A study of Mus musculus with 9 samples.

Results

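The genes described are the HIF subunits and the enzymes that sense oxygen for them, namely Hif1a, Epas1, Hif3a, Arnt, Arnt2, Egln1, Egln2, Egln3, Hif1an and Vhl. They were chosen by symbol, and all 10 were found among the 46517 genes of the deposited tables. The samples were duodenal organoids, grown from crypts of wild-type C57BL/6 mice in Matrigel with medium conditioned by L-WRN cells, a ROCK inhibitor and the TGF-β receptor inhibitor SB431542, at 5% oxygen. Dissociated cells received adenovirus at 50 particles per cell, and RNA was taken about 72 hours later. After transduction the medium also held nicotinamide. Of the 9 cultures, 3 received Ad-GFP, the control virus that expresses eGFP from the CMV promoter. A further 3 received Ad-hHIF2 and 3 received Ad-hHIF1, which carry human HIF2 or human HIF1 with a pair of prolines changed to alanine so that VHL cannot mark the protein for degradation. All 9 cultures were therefore transduced, and overexpression of the human proteins was transient and added to the mouse genes still present. The study calls the sequenced Ad-hHIF2 and Ad-GFP cultures biological replicates, and neither it nor the labels say whether each came from a separate animal, so p-values measure the spread between these cultures. Because each sample is a bulk culture, fewer cells of a type and less RNA per cell cannot be told apart.

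HIF is a pair of proteins, an oxygen-labile alpha subunit (HIF1α from Hif1a, HIF2α from Epas1 or HIF3α from Hif3a) and a stable beta subunit (from Arnt, or from Arnt2 mainly in neural tissue). With oxygen, iron and 2-oxoglutarate, the prolyl hydroxylases encoded by Egln1, Egln2 and Egln3 modify the alpha subunit, VHL binds it, and the proteasome removes it. The asparagine hydroxylase encoded by Hif1an, known as FIH, blocks the recruitment of the coactivators p300 and CBP. Egln3, and in many cells Egln1, are themselves classical HIF target genes, which forms a feedback loop. In the duodenum HIF2 is known for switching on the genes of iron uptake.

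Library totals ran from 21722618 to 51119041 expected counts. Levels in each sample are CPM, which are counts scaled to library size with the TMM factors of edgeR. A called gene is one whose adjusted p in the quasi-likelihood test of edgeR was under 0.05. The epithelial genes Krt8, Krt18 and Cdh1 lay between 204 and 1360 CPM in all 9 samples, while Epcam did not exceed 3.8 CPM. Vil1 and Cdx2 of the same list were low too, at 3.27 to 4.94 CPM and 6.55 to 8.99 CPM. The crypt stem cell marker Lgr5 did not exceed 1.19 CPM, and Olfm4 was at 0 in 8 of the 9 samples. The summed markers of enterocytes ran from 2.84 to 3.56 CPM in the Ad-hHIF2 samples and from 0.328 to 0.471 CPM in the Ad-GFP samples, and those of goblet cells from 1.61 to 2.26 and from 4.86 to 7.85 CPM. Of these, Apoa4 alone was at 2.22, 2.81 and 2.46 CPM in the Ad-hHIF2 replicates and at most 0.0277 CPM in the Ad-GFP replicates, so it made up most of the higher sum. Fabp1 did not exceed 0.0273 CPM in any sample. Muc2 made up most of the goblet cell sums. It was at 4.65, 5.43 and 7.5 CPM in the Ad-GFP replicates and 1.62, 1.49 and 2.01 CPM in the Ad-hHIF2 replicates. The part of these markers in the results on the HIF genes was not tested. Satellite-like genes took 15.96% of the counts in Ad-hHIF1 replicate 3 and 0.43% to 4.28% in the other 8 libraries.

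Of the 9 members that passed the count filter, 5 were called between Ad-hHIF2 and Ad-GFP organoids, 4 higher and 1 lower. They include Epas1, whose human form Ad-hHIF2 delivers and whose counts cannot separate that transgene from the mouse gene. Its place in this and the later counts of members is therefore no result about the mouse gene. Over all 14987 genes tested, 29.5% were called, 15.9% higher and 13.6% lower. This split depended on the scaling. With total counts only, 28.8% were called, 3491 higher and 828 lower, against 2381 and 2035 with TMM, and the median log2 change of all genes was 0.24 instead of -0.01. The 5 members kept their calls and directions there, with log2 values of 1.70 for Egln3, 0.81 for Hif1an, 0.73 for Arnt and -0.73 for Egln1, and Vhl was called too (0.63, adjusted p = 0.011, edgeR). Epas1, Egln3, Hif1an and Arnt rose, by 388-fold, 2.73-fold, 1.46-fold and 1.38-fold, and Egln1 fell to 0.502 of its Ad-GFP level. A call with a change of at least 2-fold was reached by 2 of the 9 members tested, Epas1 and Egln3, against 6.73% of all genes tested. Apart from the delivered Epas1, only Egln3 reached it. The groups did not overlap for 7 of the 9 members, and for 45.8% of all genes. No member was called between Ad-hHIF1 and Ad-GFP organoids, where edgeR called 0% of 15233 genes.

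The upstream sequences of the mouse genes called with Ad-hHIF2 are shown because they moved in different directions. They were taken from RefSeq (build GRCm38.p6), which listed 9 of the 10 members, Epas1 excepted, and cover up to 250 bases before the RefSeq start site. Bases that GENCODE M21 places inside the gene were left out. They are chr12:54203875-54204124 (minus strand) for Egln3, chr8:124949325-124949504 (minus strand) for Egln1, chr3:95434140-95434387 (plus strand) for Arnt and chr19:44562604-44562849 (plus strand) for Hif1an. Capitals mark the letters ACGTG or GCGTG, the core of the hypoxia response element, searched on both strands, where they read CACGT and CACGC in reverse.
Egln3: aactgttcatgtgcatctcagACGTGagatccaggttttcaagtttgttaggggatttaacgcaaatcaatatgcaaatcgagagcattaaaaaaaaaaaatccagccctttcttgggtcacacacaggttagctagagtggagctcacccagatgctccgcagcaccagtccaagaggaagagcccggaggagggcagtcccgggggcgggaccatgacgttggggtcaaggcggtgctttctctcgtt
Egln1: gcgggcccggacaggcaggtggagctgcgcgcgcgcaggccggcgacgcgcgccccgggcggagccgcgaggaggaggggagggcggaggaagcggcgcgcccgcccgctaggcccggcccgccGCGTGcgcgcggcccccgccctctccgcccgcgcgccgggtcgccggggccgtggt
Arnt: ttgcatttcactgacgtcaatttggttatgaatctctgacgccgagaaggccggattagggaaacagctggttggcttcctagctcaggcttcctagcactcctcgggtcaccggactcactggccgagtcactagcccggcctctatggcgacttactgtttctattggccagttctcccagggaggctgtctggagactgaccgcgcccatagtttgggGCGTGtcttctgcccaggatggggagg
Hif1an: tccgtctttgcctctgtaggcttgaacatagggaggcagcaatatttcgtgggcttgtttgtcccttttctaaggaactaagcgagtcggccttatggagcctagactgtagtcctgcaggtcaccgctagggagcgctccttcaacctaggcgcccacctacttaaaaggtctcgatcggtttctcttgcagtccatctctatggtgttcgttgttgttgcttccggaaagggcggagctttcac

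In the 250-base windows, Egln3 held 1 ACGTG, from 229 to 225 bases before the start site, and no GCGTG. Egln1 held 1 GCGTG, from 126 to 122 bases before it. Egln1 also held 1 ACGTG, from 68 to 64 bases before it, in the stretch that GENCODE M21 counts as transcribed and that is not shown. Arnt held 1 GCGTG, from 29 to 25 bases before its start site, and the window of Hif1an held neither motif. Among the other members, Hif1a held ACGTG 3 times, with 1 forward and 1 reverse match overlapping as CACGTG. The Hif1a window lies wholly inside the gene as GENCODE M21 places it. Hif3a held 2 GCGTG, at 186 to 182 and, in reverse, 230 to 226 bases before its start site, and the window at the outer start of Egln2 held 1 ACGTG and 3 GCGTG. The windows of Vhl and Arnt2 held neither. ACGTG was present in 16.6% and GCGTG in 28.2% of the 32851 windows of this length in the RefSeq table, and either of them in 38.6%. At least 1 of the motifs was found in 6 of the 9 members listed. The motif was therefore present before a gene that rose 2.73-fold and before one that fell, and absent before one that rose 1.46-fold. Such a match describes letters and is no evidence of binding.

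**Figure D1:**
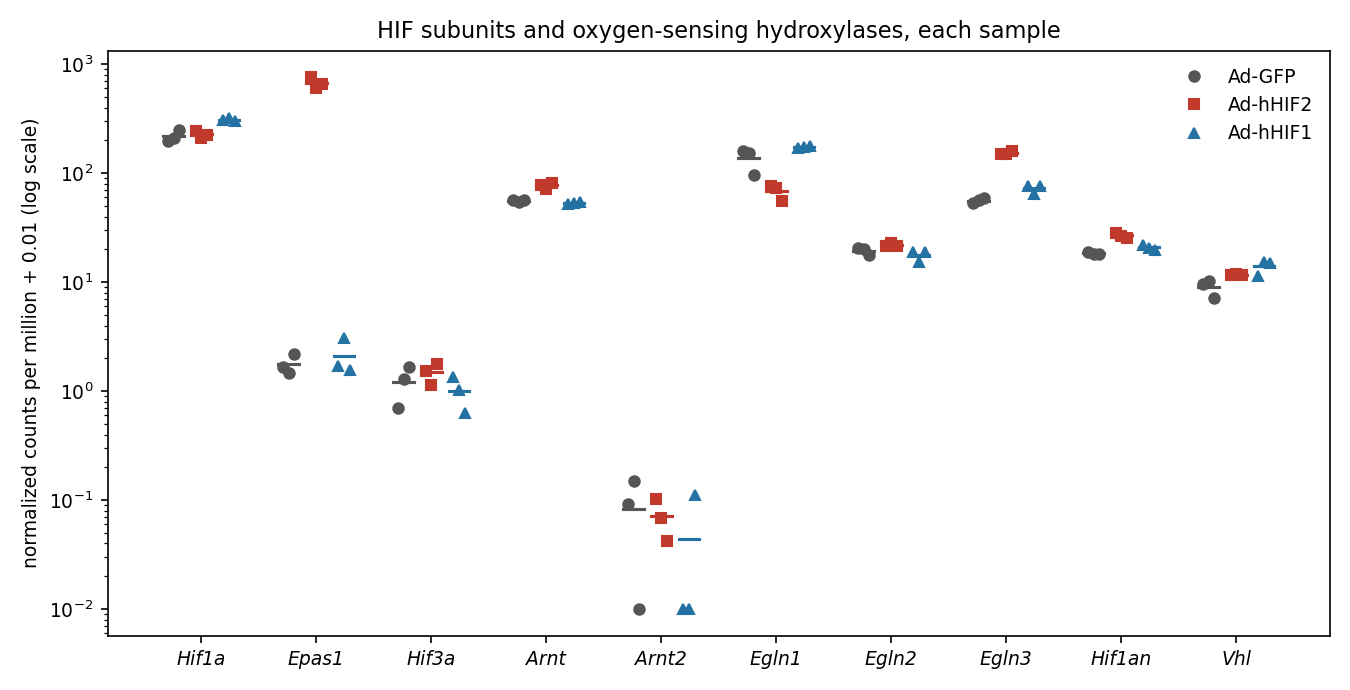
CPM plus 0.01, on a log scale, of the 10 members in each of the 9 samples, with horizontal lines at the group means (n = 3). Epas1 separated the Ad-hHIF2 samples (604 to 758 CPM) from the other 6 (1.47 to 3.07 CPM), while Arnt2 stayed below 0.14 CPM in all.

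Epas1 can check the Ad-hHIF2 labels, because only mouse genes were counted and the human transgene could appear only as reads assigned to a mouse gene. That assignment was not itself tested. Epas1 was at 1.64, 1.47 and 2.20 CPM in Ad-GFP replicates 1, 3 and 4, at 758, 604 and 654 CPM in the Ad-hHIF2 replicates, and at 1.69, 3.07 and 1.56 CPM in the Ad-hHIF1 replicates. All 3 Ad-hHIF2 samples stood far above the other 6. Over Ad-GFP the log2 fold change was 8.60 (95% interval 8.18 to 9.02, adjusted p = 8.06e-08, edgeR), and over Ad-hHIF1 it was 8.35 (7.73 to 8.98, adjusted p = 5.38e-08, edgeR). Transcripts of the transgene and of the mouse gene cannot be told apart in these counts. In the control organoids 44.02 to 60.0 expected counts were assigned to Epas1 per library, so the level there rests on few reads.

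Hif1a was the most abundant alpha subunit of the Ad-GFP organoids. It stood at 198, 210 and 251 CPM in the Ad-GFP replicates and at 244, 211 and 226 CPM in the Ad-hHIF2 replicates, and these ranges overlapped. The log2 difference between them was 0.05 (95% interval -0.19 to 0.29, adjusted p = 0.756, edgeR). In the Ad-hHIF1 replicates Hif1a was at 309, 319 and 299 CPM, above every sample of the other groups. Over Ad-GFP this was a log2 fold change of 0.49 (0.25 to 0.73), with an unadjusted p of 0.00148 and an adjusted p of 0.486 in edgeR. Compared with the Ad-hHIF1 samples, Hif1a was lower in the Ad-hHIF2 samples by a called log2 difference of -0.45 (-0.67 to -0.22, adjusted p = 0.0086, edgeR). This call held in 16 of 19 alternatives, where the difference ran from -0.49 to -0.17 and the adjusted p reached 0.759. Over Ad-GFP, the level assigned to Epas1 was thus 388-fold with Ad-hHIF2. That assigned to Hif1a was 1.41-fold with Ad-hHIF1, a difference that edgeR did not call. The expected counts of Hif1a were fractional in all 9 libraries, so some of its reads were shared with other features. How many reads of the human HIF1 transcript were assigned to mouse Hif1a was not tested, so Hif1a neither checks nor contradicts the Ad-hHIF1 labels. The study itself reports HIF overexpression from the adenoviruses by western blot and by qRT-PCR, before the sequencing.

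Hif3a, whose product can restrain the other alpha subunits, was rare. It was at 0.683, 1.27 and 1.65 CPM in the Ad-GFP replicates, 1.53, 1.14 and 1.75 in the Ad-hHIF2 replicates and 1.34, 1.01 and 0.614 in the Ad-hHIF1 replicates. The 3 groups overlapped. With 23 to 67 counts per library, the 95% interval of the log2 difference between Ad-hHIF2 and Ad-GFP ran from -0.56 to 1.19, which includes a 2-fold rise.

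Arnt, the shared beta subunit, was at 56.5, 54.9 and 56.7 CPM in the Ad-GFP replicates, 78.6, 72.3 and 81.2 CPM in the Ad-hHIF2 replicates and 52.5, 53.7 and 53.9 CPM in the Ad-hHIF1 replicates. The Ad-hHIF2 samples were above all others, and the Ad-hHIF1 samples were just below the Ad-GFP samples. Arnt rose in Ad-hHIF2 organoids by a log2 value of 0.47 (95% interval 0.31 to 0.63, adjusted p = 0.00182, edgeR) over Ad-GFP and was higher by 0.53 (adjusted p = 0.000236, edgeR) than in Ad-hHIF1 organoids. Between Ad-hHIF1 and Ad-GFP the log2 difference was -0.07 (-0.21 to 0.08, adjusted p = 0.764, edgeR). With limma on log2(TPM + 1) the rise over Ad-GFP was 0.66 and was not called (adjusted p = 0.114), where 6.74% of all genes were, and over the 16 alternatives the adjusted p ran from 1.27e-06 to 0.114. Arnt2 had 0 to 5 counts per library and was not tested.

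The 3 alpha subunits together can be set against the beta subunits with TPM, which is corrected for transcript length within a sample. The ratio was 3.01, 3.12 and 3.94 in the Ad-GFP replicates, 9.05, 8.31 and 8.13 in the Ad-hHIF2 replicates and 4.84, 5.27 and 4.72 in the Ad-hHIF1 replicates. The 3 groups did not overlap, with means of 3.35 ± 0.509, 8.50 ± 0.489 and 4.94 ± 0.289 (SD, n = 3). Each pair of groups gave p = 0.1 in a two-sided exact permutation test, the smallest that 3 samples against 3 can give. Mouse Arnt thus rose with Ad-hHIF2, but by far less than the transcripts counted as alpha subunits. With Ad-hHIF2 most of that alpha sum was Epas1, whose counts do not separate the transgene from the mouse gene. The higher ratio there is therefore no measure of the mouse subunits alone. Counted per kilobase, Epas1 reached 2.58, 2.36 and 2.38 times the level of Hif1a in the Ad-hHIF2 replicates, and at most 0.00786 times that level in the other 6 samples.

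Egln1, the main prolyl hydroxylase of HIF1α in most tissues, was at 160, 154 and 96.0 CPM in the Ad-GFP replicates. It was at 76.0, 73.2 and 56.0 CPM in the Ad-hHIF2 replicates and at 172, 175 and 179 CPM in the Ad-hHIF1 replicates. Every Ad-hHIF2 sample was below every Ad-GFP sample, every Ad-hHIF1 sample was above, and Ad-GFP replicate 4 was the lowest control. Egln1 fell with Ad-hHIF2 to 0.502 of the Ad-GFP level (log2 interval -1.43 to -0.56, adjusted p = 0.00545, edgeR), just short of a 2-fold change. Without Ad-GFP replicate 4 the log2 change was -1.19, and without each of the 6 samples in turn it lay between -1.19 and -0.86. On the scale log2(TPM + 1), limma gave -0.41 (adjusted p = 0.382), not called, and over the 16 alternatives the adjusted p ran from 1.14e-19 to 0.382. Against Ad-hHIF1 the level was 0.39 (log2 interval -1.76 to -0.96, adjusted p = 0.000417, edgeR). The difference between Ad-hHIF1 and Ad-GFP was 0.36 on the log2 scale (-0.05 to 0.77, adjusted p = 0.602, edgeR), and 0.16 without Ad-GFP replicate 4.

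Egln3, the most strongly HIF-inducible of the prolyl hydroxylases in many cell types, moved the other way. It was at 53.2, 56.4 and 58.6 CPM in the Ad-GFP replicates, 149, 149 and 160 CPM in the Ad-hHIF2 replicates and 76.6, 64.9 and 75.9 CPM in the Ad-hHIF1 replicates. The 3 groups did not overlap and stood in the order Ad-GFP, Ad-hHIF1, Ad-hHIF2. Over Ad-GFP, Egln3 rose 2.73-fold with Ad-hHIF2 (log2 interval 1.27 to 1.62, adjusted p = 5.09e-06, edgeR), and the call held in all 16 alternatives. It was also 2.10-fold higher than in Ad-hHIF1 organoids (log2 interval 0.89 to 1.26, adjusted p = 9.87e-06, edgeR). With Ad-hHIF1 it was 1.29-fold over Ad-GFP (log2 interval 0.17 to 0.57), with an unadjusted p of 0.00285 and an adjusted p of 0.486 in edgeR.

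Egln2, the isoform that is usually little affected by oxygen, was at 20.4, 20.1 and 17.6 CPM in the Ad-GFP replicates, 21.6, 23.1 and 21.6 CPM in the Ad-hHIF2 replicates and 18.9, 15.4 and 18.9 CPM in the Ad-hHIF1 replicates. The Ad-hHIF2 samples were above all others, by less than the distance between the lowest and the highest control. The log2 difference from Ad-GFP was 0.19 (95% interval 0 to 0.38, adjusted p = 0.115, edgeR). From Ad-hHIF1 it was 0.31 (0.10 to 0.53, adjusted p = 0.0394, edgeR), a call that held in 7 of 19 alternatives, with adjusted p between 0.0288 and 0.344.

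The changes of Egln1 and Egln3 altered which prolyl hydroxylase transcript was the most abundant. Within the summed TPM of the 3 EGLN genes, Egln1 held 59.9%, 58.4% and 45.8% in the Ad-GFP replicates, 24.2%, 23.3% and 18.1% in the Ad-hHIF2 replicates and 55.7%, 59.6% and 56.9% in the Ad-hHIF1 replicates. Egln3 held 26.6%, 28.5% and 37.3%, then 63.4%, 63.5% and 69.3%, then 33.1%, 29.6% and 32.3% in the same order. Egln1 was the leading isoform in all 6 Ad-GFP and Ad-hHIF1 samples, and Egln3 in all 3 Ad-hHIF2 samples. The mean share of Egln3 was higher by 34.6 percentage points with Ad-hHIF2 than with Ad-GFP and that of Egln1 was different by -32.8 points, each with p = 0.1 in the exact permutation test, the minimum for this design. Between Ad-hHIF1 and Ad-GFP the share of Egln3 differed by 0.855 points (exact permutation p = 0.9) and that of Egln1 by 2.72 points (exact permutation p = 0.9). Both depended on Ad-GFP replicate 4, without which they were 4.11 and -1.72 points and the Ad-hHIF1 samples were all above the remaining controls in their share of Egln3. The share of Egln2 was 14.5% ± 2.08, 12.7% ± 0.462 and 10.9% ± 0.247 (SD, n = 3) in Ad-GFP, Ad-hHIF2 and Ad-hHIF1 organoids.

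**Figure D2:**
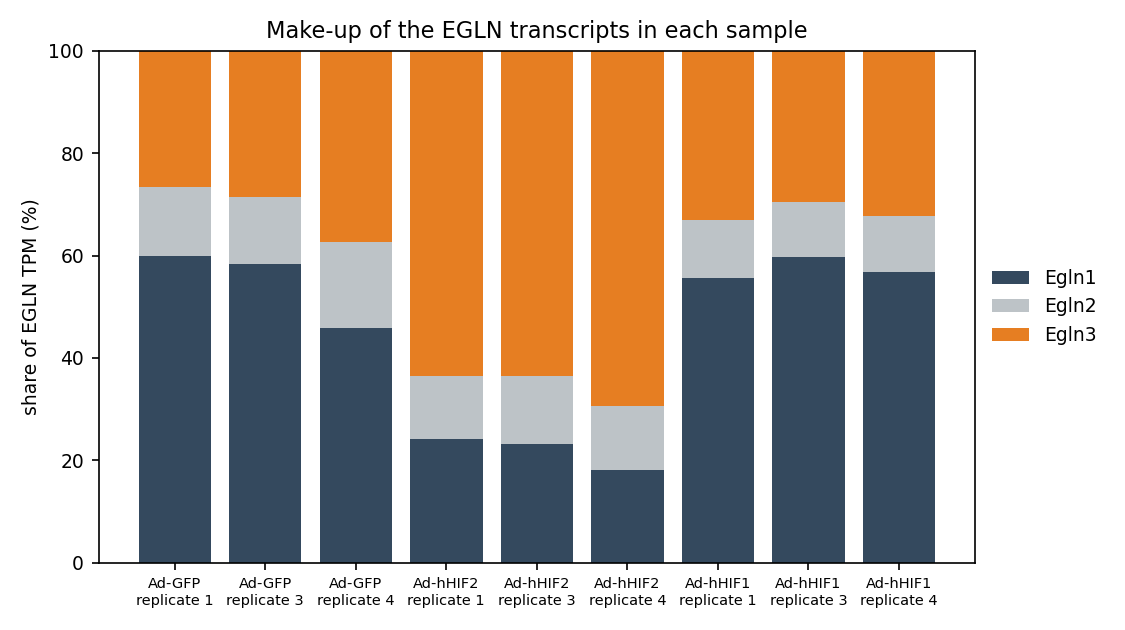
Share (%) of Egln1, Egln2 and Egln3 in the summed TPM of the 3 genes, 1 stacked bar for each sample. Egln3 took 63.4% to 69.3% in the Ad-hHIF2 samples and 26.6% to 37.3% in the other 6.

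The summed level of the 3 EGLN genes, in CPM per kilobase, was 73.2 ± 9.62 with Ad-GFP, 92.4 ± 1.03 with Ad-hHIF2 and 90.8 ± 2.69 with Ad-hHIF1 (SD, n = 3). Both HIF groups were above all Ad-GFP samples (exact permutation p = 0.1 each, the minimum), and they overlapped with each other (exact permutation p = 0.6). In the same unit Egln1 went from 40.5 ± 10.5 with Ad-GFP to 20.3 ± 3.21 with Ad-hHIF2, and Egln3 from 22.2 ± 1.04 to 60.4 ± 2.44 (SD, n = 3). With Ad-hHIF1, Egln1 was at 52.1 ± 0.925 and Egln3 at 28.8 ± 2.46 (SD, n = 3). The totals of the HIF groups overlapped, while their shares of Egln1 and Egln3 did not.

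Hif1an, the gene of the asparagine hydroxylase FIH, was at 18.9, 18.2 and 18.2 CPM in the Ad-GFP replicates, 28.5, 26.5 and 25.6 CPM in the Ad-hHIF2 replicates and 22.1, 20.7 and 19.9 CPM in the Ad-hHIF1 replicates. The 3 groups did not overlap. In counts, Hif1an rose with Ad-hHIF2 by a log2 value of 0.55 (95% interval 0.38 to 0.71, adjusted p = 0.000825, edgeR) over Ad-GFP and was higher by 0.36 (0.20 to 0.52, adjusted p = 0.00479, edgeR) than with Ad-hHIF1. Between Ad-hHIF1 and Ad-GFP the log2 difference was 0.18 (0 to 0.36, adjusted p = 0.588, edgeR).

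This rise came with a longer estimated mean transcript length. RSEM reports for each gene the mean length of its transcripts weighted by their abundance. For Hif1an it was 4086, 4251 and 3422 bases in the Ad-GFP replicates, 4795, 5098 and 5619 bases in the Ad-hHIF2 replicates and 5605, 5150 and 4318 bases in the Ad-hHIF1 replicates. All 6 HIF samples were longer than all 3 Ad-GFP samples, by 1251 bases on average for Ad-hHIF2 and 1105 for Ad-hHIF1 (exact permutation p = 0.1 each, the minimum). Here and above, levels per kilobase used the effective length that RSEM also reports, which is somewhat shorter than the mean length. Per kilobase of effective length, the level of Hif1an was 4.79, 4.42 and 5.55 CPM in the Ad-GFP replicates. It was 6.11, 5.34 and 4.68 in the Ad-hHIF2 replicates and 4.05, 4.16 and 4.76 in the Ad-hHIF1 replicates. On that scale the groups overlapped (exact permutation p = 0.5 for Ad-hHIF2 against Ad-GFP). In the deposited TPM, Hif1an was at 0.597 ± 0.0551 with Ad-GFP and 0.96 ± 0.478 with Ad-hHIF2 (SD, n = 3), and limma did not call the log2 differences of 0.27 on log2(TPM + 1) (adjusted p = 0.423) and 0.52 on log2(TPM + 0.1) (adjusted p = 0.376). Over the 16 alternatives the adjusted p of Hif1an ran from 9.27e-07 to 0.423. The files list 2 transcripts for the gene. In GENCODE M21, whose gene models need not be those used for the files, they are a protein-coding transcript of 6194 bases and a retained-intron transcript of 868 bases.

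**Figure D3:**
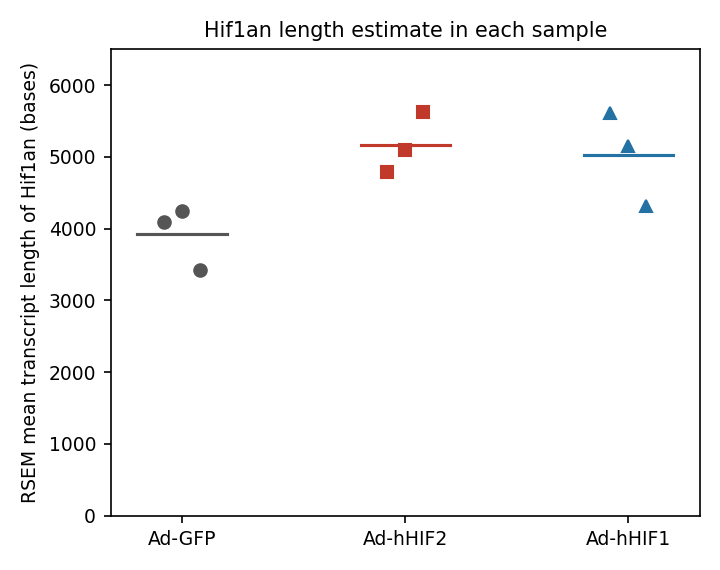
Mean transcript length of Hif1an in bases, as RSEM estimated it for each sample, with lines at the group means (n = 3). The Ad-GFP samples lay between 3422 and 4251 bases and the HIF samples between 4318 and 5619.

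No such separation of length can occur for Epas1, Arnt2, Egln1 and Egln3, for which the files list a single transcript. Among the other members, the lengths of Arnt, Egln2 and Vhl overlapped between the groups. The length of Hif1a overlapped between each HIF group and Ad-GFP, but ran from 4383.83 to 4437.25 bases with Ad-hHIF2 and from 4349.91 to 4377.96 with Ad-hHIF1. That of Hif3a ran from 968.91 to 6402 bases on its few counts.

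Vhl, the substrate receptor of the ubiquitin ligase that binds hydroxylated HIFα, was at 9.70, 10.2 and 7.15 CPM in the Ad-GFP replicates, 11.6, 11.8 and 11.6 CPM in the Ad-hHIF2 replicates and 11.4, 15.3 and 15.1 CPM in the Ad-hHIF1 replicates. All 6 HIF samples were above the Ad-GFP samples, and Ad-GFP replicate 4 was the lowest. The log2 difference from Ad-GFP was 0.37 with Ad-hHIF2 (95% interval 0.07 to 0.67, adjusted p = 0.0671, edgeR) and 0.62 with Ad-hHIF1 (0.22 to 1.02, unadjusted p = 0.00735, adjusted p = 0.491, edgeR). Between the HIFs it was -0.25 (-0.58 to 0.08, adjusted p = 0.251, edgeR).

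Within the Ad-GFP samples, mean TPM placed the members in the order Hif1a (6.34), Egln1 (4.95), Egln3 (2.70), Arnt (1.93), Egln2 (1.28), Hif1an (0.597), Vhl (0.423), Hif3a (0.05), Epas1 (0.0433) and Arnt2 (0). Neighbours in this order did not overlap, except Hif1a with Egln1 and Hif3a with Epas1. In the Ad-hHIF2 samples Epas1 (23.2) and Egln3 (10.4) led, ahead of Hif1a (9.38), Arnt (3.79) and Egln1 (3.60). Egln3 exceeded Hif1a in all 3 of them, though their ranges overlapped, and Arnt exceeded Egln1 in 1 of 3. In the Ad-hHIF1 samples the order of the first 5 was that of the Ad-GFP samples, with Hif1a at 10.1 and Egln1 at 7.20 on average. Ad-hHIF2 replicate 1 had the highest TPM of its group, with Epas1 at 36.26 against 15.75 and 17.58 in replicates 3 and 4. TPM depends on what else fills a library, so levels were compared between groups in CPM, and TPM served for order, ratios and shares within samples and for the alternatives with limma.

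**Figure D4:**
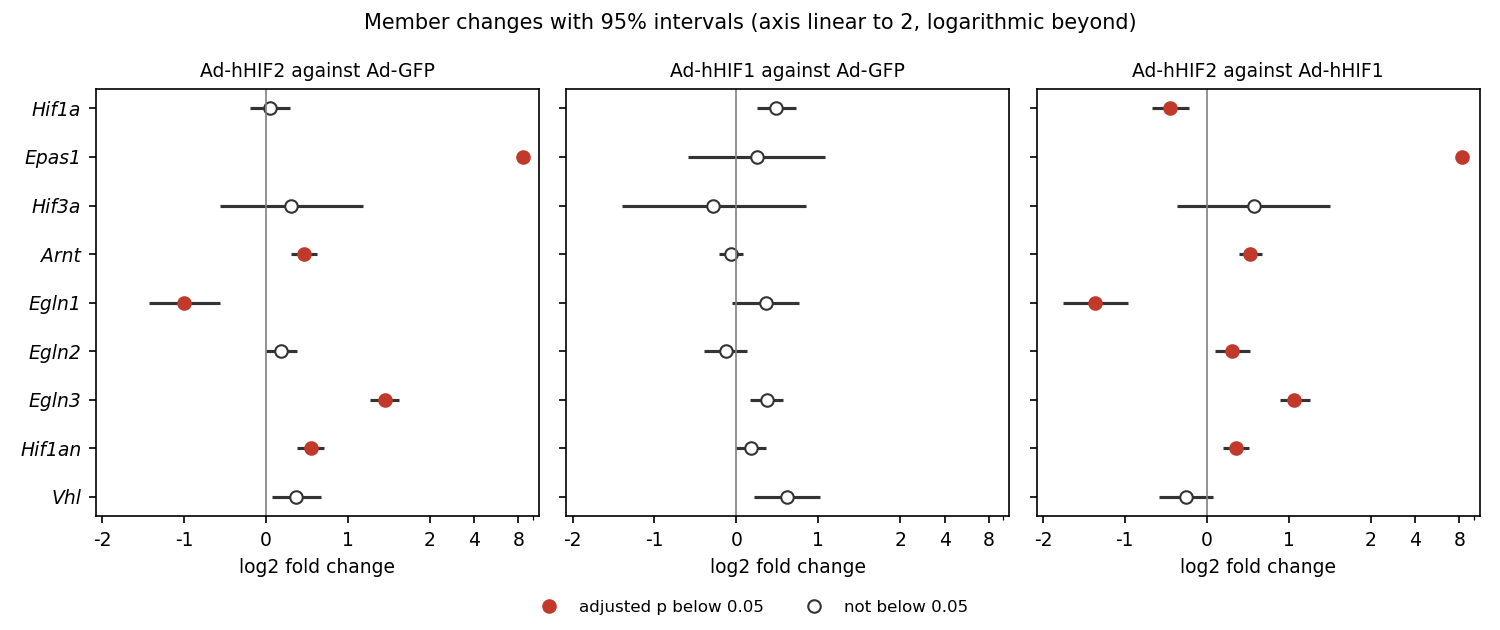
Log2 fold changes of the 9 tested members with 95% intervals in the 3 comparisons. The axis is linear up to 2 and logarithmic beyond, and filled points have an adjusted p below 0.05 in edgeR. With Ad-hHIF2, Epas1, Egln3, Hif1an and Arnt lay above 0 and Egln1 below, and no point was filled for Ad-hHIF1 against Ad-GFP.

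In the direct comparison of the HIFs, 7 of the 9 members were called, again with Epas1, the gene that Ad-hHIF2 delivers, among them. Epas1, Arnt, Egln2, Egln3 and Hif1an were higher and Hif1a and Egln1 lower in the Ad-hHIF2 samples. Over 15556 genes, 25.8% were called, 13.7% higher and 12% lower, and the groups did not overlap for 7 members and for 41.8% of the genes. With total counts only, 18.6% were called, 2096 higher and 804 lower, against 2137 and 1871 with TMM. This comparison shares the Ad-hHIF2 samples with the preceding one, and it is the test of a difference between the HIFs. Epas1, Egln3 and Egln1 passed the 2-fold rule too, against 6.11% of all genes, with Egln1 in the opposite direction. On log2(TPM + 1), limma called Epas1 and Egln3 and no other member in this comparison, and 2.36% of all genes. With scaling to total counts only, the difference of Hif1a was -0.25 (adjusted p = 0.359, edgeR).

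Against Ad-GFP, the count of 0 called members for Ad-hHIF1 depended on the test. Before adjustment 3 members had p below 0.05 in edgeR, namely Hif1a, Egln3 and Vhl, against 8.59% of all genes. DESeq2 called 2 members, Hif1a (adjusted p = 5.76e-05) and Egln3 (adjusted p = 0.0104), and 3.13% of the 4598 genes it gave an adjusted p. edgeR without a count filter called Hif1a (adjusted p = 0.00251) and Vhl (adjusted p = 0.00713), and 1.29% of 29714 genes. The groups did not overlap for 6 of the 9 members, 5 higher and 1 lower, and for 17.4% of all genes, 8.38% higher and 9.06% lower. These values give small differences for Hif1a, Egln3 and Vhl with Ad-hHIF1, whose calls changed with the tool or the filter.

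The partners of the HIFs and of VHL were followed with a list of 18 genes, of which 17 could be tested. With Ad-hHIF2, 3 rose and 4 fell over Ad-GFP, with a median log2 change of -0.09 against -0.012 for all genes, of which 15.9% were called higher and 13.6% lower. Cited2, a competitor of HIF for p300 and CBP, was at 95.1, 92.1 and 109 CPM in the Ad-GFP replicates, 207, 188 and 239 CPM in the Ad-hHIF2 replicates and 80.4, 79.4 and 80.2 CPM in the Ad-hHIF1 replicates. It rose by a log2 value of 1.10, and the coactivator genes Crebbp and Ep300 rose by 0.44 and 0.41. The chaperone genes Hsp90aa1 and Hsp90b1 fell by 0.58 and 0.51, and Rack1, an adaptor for oxygen-independent degradation of HIF1α, fell by 0.58 on the log2 scale. Cul2, the scaffold of the VHL ligase, fell by 0.25, while Elob, Eloc and Rbx1 of the same complex had log2 values of -0.14, -0.10 and 0 and were not called. With Ad-hHIF1, edgeR called 0 of the 17, of which 2 had an unadjusted p below 0.05, against 8.59% of all genes. In the direct comparison 3 were higher and 5 lower with Ad-hHIF2, against 13.7% higher and 12% lower of all genes. Cited2 (log2 value 1.40) and Hsp90b1 (-0.97) led them. With total counts only 3 were higher and 2 lower there, against 2096 and 804 of all 15556 genes. Over Ad-GFP, total counts only gave 3 partners higher and 0 lower, against 3491 and 828 of all 14987 genes. Over this and the next 3 lists together, 17 genes were higher and 17 lower with Ad-hHIF2 than with Ad-GFP, against 20 and 9 with total counts only and 11 and 2 with limma on log2(TPM + 1).

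A list of 12 held the relatives of ARNT among the bHLH-PAS factors and Tiparp, an AHR target that is no bHLH-PAS factor, and 7 were expressed enough to test. With Ad-hHIF2, 4 rose over Ad-GFP and 0 fell, with a median log2 value of 0.58, and without Tiparp 3 of 6 rose and 0 fell, with a median of 0.445. Of all genes 15.9% were called higher and 13.6% lower. With total counts only the list also had 4 higher and 0 lower, against 3491 and 828 of all 14987 genes. Ahr, the dioxin receptor that also pairs with ARNT, was at 42.2, 40.1 and 42.4 CPM in the Ad-GFP replicates and at 72.9, 69.9 and 65.2 CPM in the Ad-hHIF2 replicates, a log2 change of 0.74 (adjusted p = 0.000146, edgeR). Tiparp, an ADP-ribosyltransferase that represses AHR, rose by 1.44, and Sim2 by 0.75. Arntl, a clock factor, rose by 0.31. In Ad-hHIF1 organoids edgeR called 0 of the 7, of which 2 had an unadjusted p below 0.05, against 8.59% of all genes. Compared with Ad-hHIF1, Ad-hHIF2 organoids also had more Tiparp, Sim2 and Ahr, by 1.14, 1.05 and 0.95 on the log2 scale, and these were the 3 called of 7, against 13.7% called higher of all genes.

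Of 28 general hypoxia targets, all tested, 8 rose and 10 fell with Ad-hHIF2 over Ad-GFP, with a median log2 value of -0.15, against 15.9% higher and 13.6% lower of all genes. With total counts only, 10 were higher and 7 lower, with a median of 0.1. Of all 14987 genes, 3491 were then higher and 828 lower, with a median of 0.24. The list contains Egln3 among the genes that rose and Egln1 among those that fell. Among those that rose, Ankrd37 was at 19.2, 16.9 and 11.5 CPM in the Ad-GFP replicates and at 75.5, 91.4 and 72.8 CPM in the Ad-hHIF2 replicates, and the groups did not overlap. It rose by a log2 value of 2.32 and Egln3 by 1.45. The largest decreases were those of Hmox1, which degrades haem (-1.99), Higd1a, a mitochondrial factor (-1.38), and Ddit4, an inhibitor of mTORC1 (-1.30). With Ad-hHIF1, edgeR called 0 of the 28, and 9 had an unadjusted p below 0.05, against 8.59% of all genes. Their median log2 value was 0.16, against 0.001 for all genes. The groups did not overlap for 14 of the 28 that were higher and 1 that was lower, and for 8.38% and 9.06% of all genes. DESeq2 gave 24 of them an adjusted p and called 7 higher and 0 lower, against 3.13% called of all genes it gave one. Between the HIFs, 9 were higher and 13 lower with Ad-hHIF2, against 13.7% and 12% of all genes. With total counts only these were 9 and 9, against 2096 and 804 of all 15556 genes.

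Of 10 intestinal HIF2 targets, 3 rose and 3 fell with Ad-hHIF2 over Ad-GFP, against 15.9% higher and 13.6% lower of all genes. With total counts only 5 were higher and 2 lower, against 3491 and 828 of all 14987 genes. Nos2, the inducible nitric oxide synthase, was at 6.23, 5.99 and 5.15 CPM in the Ad-GFP replicates, 127, 124 and 124 CPM in the Ad-hHIF2 replicates and 14.3, 10.9 and 13.9 CPM in the Ad-hHIF1 replicates. The duodenal ferric reductase gene Cybrd1 was at 1.99, 2.66 and 3.15 CPM in the Ad-GFP replicates and at 11, 11.4 and 12.7 CPM in the Ad-hHIF2 replicates. Nos2 rose by 4.43, Ankrd37 by 2.32 and Cybrd1 by 2.19 on the log2 scale, while Ptgs2, Tfrc and Cxcl1 had changes of -1.57, -1.30 and -0.42. The iron importer gene Slc11a2 and the iron exporter gene Slc40a1 had log2 values of 0.29 (adjusted p = 0.0604, edgeR) and -0.03 (adjusted p = 0.937, edgeR). With Ad-hHIF1, edgeR called 0 of the 10, of which 3 had an unadjusted p below 0.05, against 8.59% of all genes. Between the HIFs, 5 were higher and 3 lower with Ad-hHIF2, against 13.7% and 12% of all genes. With total counts only these were 5 and 2, against 2096 and 804 of all 15556 genes.

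**Figure D5:**
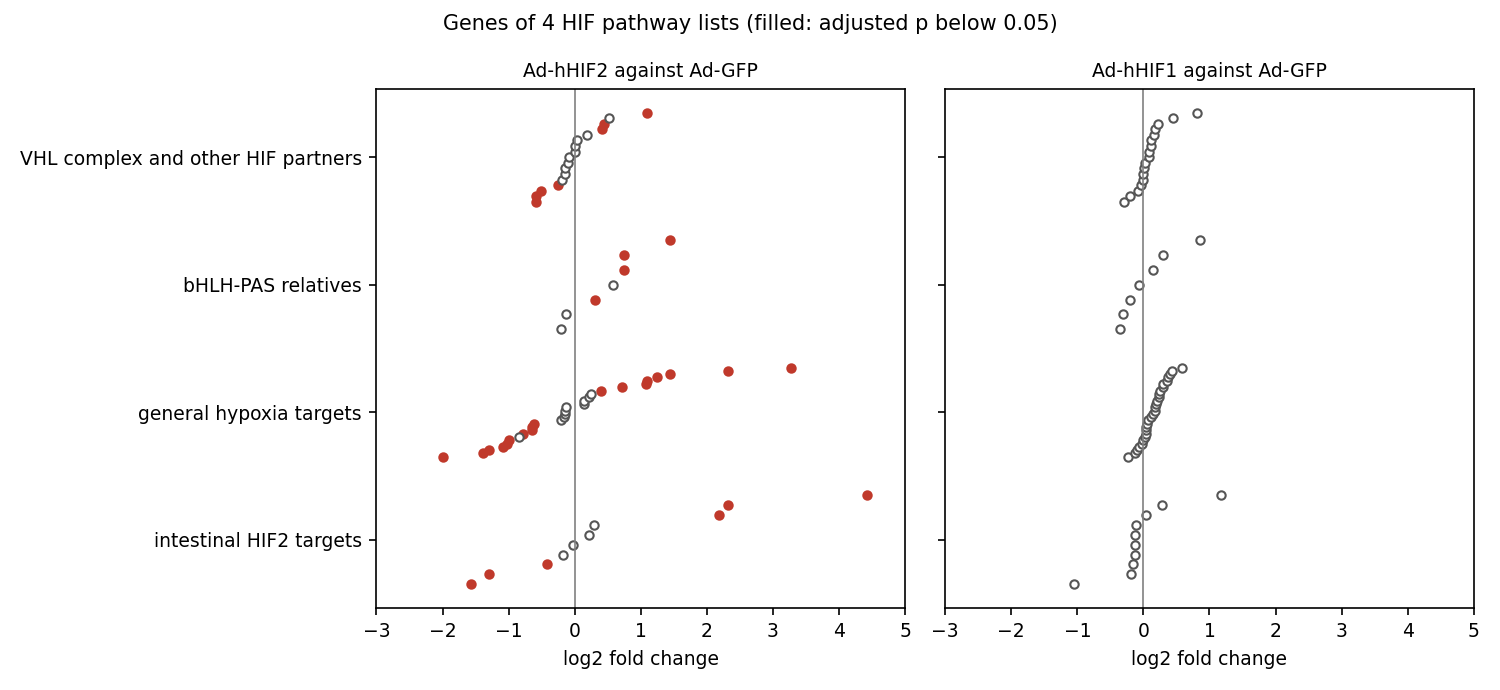
Log2 fold changes over Ad-GFP of each tested gene of the 4 lists, with Ad-hHIF2 on the left and Ad-hHIF1 on the right, where filled points have an adjusted p below 0.05 in edgeR. Filled points lie on both sides of 0 with Ad-hHIF2 in 3 lists and only above 0 in the list of bHLH-PAS relatives and Tiparp, and there are none with Ad-hHIF1.

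Likeness to a member was measured among the 9258 genes with a mean of at least 5 CPM over the 9 samples, in log2(CPM + 0.5) centred on the Ad-GFP mean. By that measure the genes closest to Egln3 were Plat, Arrb1, Adam10, Tiparp and Ero1l. Their root mean square difference from Egln3 was 0.10 to 0.14. Plat, the tissue plasminogen activator, had means of 120, 325 and 155 CPM in Ad-GFP, Ad-hHIF2 and Ad-hHIF1 organoids. Like Egln3, it was intermediate with Ad-hHIF1. For Epas1 the nearest of these genes were farther off, at 1.98 for Pthlh, 2.16 for Galnt9, 2.19 for Edn2, 2.32 for Aqp8 and 2.34 for Nos2. Pthlh, Galnt9, Edn2 and Aqp8 reached the minimum only through the Ad-hHIF2 samples, and genes of lower mean level were not compared. Pthlh, the gene of parathyroid hormone-related protein, had means of 0.411, 25.6 and 0.479 CPM.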

How the data were processed

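RNA from 9 transduced duodenal organoid cultures was sequenced. The authors removed low-quality reads and estimated expected counts with RSEM, which were deposited without normalization. Beside them the deposited TPM were made by the authors with RSEM from those counts and each gene's effective length, which the tables also give. The aligner, genome build, annotation, strandedness and RSEM version are not given in the sources used here. Fractional reads shared between similar genes make counts of such genes uncertain.

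Expected counts were rounded, genes with low counts were removed with filterByExpr, and groups were compared with edgeR 4.0.16 (TMM, quasi-likelihood test, Benjamini-Hochberg over all genes tested; R 4.3.3), each HIF against Ad-GFP in its own 6 samples and the HIFs against each other in all 9. The authors used EBSeq, which was not used here. Intervals are 95%. Shares, ratios and lengths were compared by two-sided exact permutation tests, which cannot go below 0.10 with 3 samples per group. Even the closest pair of samples within a group had a chi-square over degrees of freedom of 26.3, so no sample was treated as a duplicate. Pairs from different groups were not examined.

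The members and lists were chosen with earlier results of these data known. From each list the up to 3 largest called changes in each direction are named, together with the 5 genes closest in profile to Epas1 and to Egln3. Arntl, Elob, Eloc, Rbx1, Slc11a2, Slc40a1 and Cul2 were named after their values were seen. The tests of the Hif1an length, its level per kilobase and the summed EGLN level were added then too. Elob, Eloc and Rack1 were matched by Ensembl identifier. A named result on 1 gene of the general hypoxia list is not reported here. Alternatives were DESeq2 1.42.0, limma 3.58.1 on log2(TPM + 1) and log2(TPM + 0.1), total counts or median-ratio scaling, other count filters, unrounded counts, other sample sets, the replicate block and each sample left out. Python 3.11.15 and matplotlib 3.10.9 were used for the figures.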

Additional observations from a re-analysis of the deposited data

How the results depend on the processing

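The calls of Epas1 and Egln3 in the comparisons with Ad-hHIF2 held under every alternative run. Of 144 values of members under 16 alternatives for Ad-hHIF2 against Ad-GFP, 135 kept direction and side of the threshold, 6 were no longer called, 2 became called and 1 turned. For Ad-hHIF1 against Ad-GFP 129 of 144 did so, and for Ad-hHIF2 against Ad-hHIF1 149 of 171. The cause of the differences below was not tested.

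With limma on either TPM scale, 2 members were higher and 0 lower for Ad-hHIF2 against Ad-GFP, and pathway list genes that were lower numbered 2, with 11 higher on log2(TPM + 1), against 17 higher and 17 lower in edgeR. For Ad-hHIF2 against Ad-hHIF1 the same scales gave 2 members higher, 0 lower and 0 lower by 2-fold, with 9 or 10 list genes higher and 4 or 6 lower, against 18 and 21. With total counts only, 9 list genes were lower for Ad-hHIF2 against Ad-GFP, and 1 member and 13 list genes were lower for Ad-hHIF2 against Ad-hHIF1. Of all genes, 828 of 14987 and 804 of 15556 were lower in these comparisons. Egln1 passed the 2-fold rule (1 member) with at least 10 counts in every sample and with all 9 samples in a single fit. For Ad-hHIF1 against Ad-GFP, DESeq2 gave 2 members higher and 10 list genes higher with 1 lower, no count filter gave 2 members and 5 list genes higher, and all 9 samples in a single fit gave 1 list gene higher. DESeq2 called 144 of the 4598 genes it gave an adjusted p in that comparison.

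Turned directions were all among small values. Hif1a with Ad-hHIF2 ran from -0.02 to 0.17 with each sample left out, the lowest without Ad-GFP replicate 1. With Ad-hHIF1 against Ad-GFP, Arnt was 0.01 with total counts only and 0.07 and 0.11 on the TPM scales, Hif3a 0.05 and 0.28, Egln2 0.06 and 0.10, and Hif1an 0 on both. With each sample left out there, Hif3a ran from -0.57 to 0.01, the highest without Ad-GFP replicate 4, and Epas1 from -0.11 to 0.42, the lowest without Ad-hHIF1 replicate 3. Vhl between the HIFs was 0.01 on log2(TPM + 1).

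With each sample left out, members lower by 2-fold for Ad-hHIF2 against Ad-GFP numbered 0 to 1, the 1 being Egln1 without Ad-GFP replicate 4, Ad-hHIF2 replicate 1 or Ad-hHIF2 replicate 3. Members higher by 2-fold in Ad-hHIF2 against Ad-hHIF1 numbered 1 to 2, Egln3 missing the fold (0.99) without Ad-hHIF1 replicate 3. The adjusted p of Egln2 there reached 0.158 without Ad-hHIF2 replicate 3. Without Ad-GFP replicate 4, the share of Egln1 with Ad-hHIF1 differed from Ad-GFP by -1.72 points and that of Egln3 by 4.11, and without Ad-GFP replicates 1 or 3 that of Egln3 by -1.25 or -0.292 points.

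The replicate numbers were not taken to pair the samples, because not every same-number correlation of deviations was above 0.1. Those correlations were 0.153, 0.057 and -0.131 for Ad-hHIF1 with Ad-GFP, and -0.089, -0.11 and -0.25 between the HIFs. For Ad-hHIF2 with Ad-GFP these were 0.086, 0.093 and 0.214, on average 0.131 against -0.065 for different numbers, and 4 of the 6 samples were closest to their own number. With the replicate block 4631 genes were called there, against 4416, the adjusted p of Egln1 was 0.000259, the call of Egln2 between the HIFs was lost (0.32, adjusted p = 0.0643) and no other member's call changed. The low counts of Hif3a (23 to 67) and Arnt2 (0 to 5) limit their precision.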
